A study of Mus musculus with 12 samples.

Results

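This report describes 9 genes of the type 2 immune axis in MC38 tumors: the cytokines Il4, Il5 and Il13, the receptor chains Il4ra and Il13ra1, the transcription factor Gata3, the IL-33 receptor Il1rl1, and Retnla and Ccl24, both known as genes that macrophages switch on under IL-4 or IL-13. They were chosen by name, and all 9 were among the 26938 genes with a count. MC38 is a mouse colon carcinoma line. The line was injected into female hosts of 8 to 12 weeks, either C57BL/6J (B6) mice or F1 offspring of B6 with a strain of the Collaborative Cross (CC), a panel that mixes the genomes of several founder strains. At a tumor volume of 75 to 110 mm3 each mouse was given 200 µg, once, of an anti-PD-1 antibody (aPD1) or of its isotype control. Tumors were taken 48 h later, frozen, dissociated and marked with hashtag antibodies. Their cells were then sorted to a 90:10 mixture of CD45-positive and CD45-negative cells and sequenced in 12 pools of 4 specimens with 10x Genomics 5′ chemistry. The replicate is the tumor, of which there were 48.

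Hosts of CC001, CC002 and CC075 F1, classed by the study as responders to aPD1, gave 10 isotype and 10 aPD1 tumors. Hosts of CC036, CC079 and CC080 F1, classed as non-responders, gave 9 isotype and 9 aPD1 tumors. B6 (3 isotype and 3 aPD1 tumors) and CC007 F1 (2 and 2) belong to no class. The class comes from the study and not from the sample labels, and tumors of a strain share a genome, so a class comparison rests on 3 strains against 3. The class tests took tumors as replicates, so their SEs and p-values measure the spread between tumors and not between strains. Isotype and aPD1 tumors never carried the same hashtag, and the effects of hashtag and treatment cannot be told apart. Pools 1 to 5 held CC001, CC002, CC079 and CC080 tumors, pools 6 and 7 B6 and CC007, and pools 8 to 12 the CC036 and CC075 tumors together with some of B6 (pool 8), CC080 (pool 11), CC001 and CC002 (pool 12).

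The table held 93126 cells with a median of 3333.5 unique molecular identifiers (UMIs, each marking 1 captured transcript) per cell, 53 to 3082 cells and 88816 to 17713491 UMIs per tumor. The clusters are the authors' numbered ones, named here from marker genes: 68059 cells (73.1%) were in macrophage clusters and 12021 (12.9%) in T/NK clusters, and clusters 20 and 25 (3660 cells) stayed unnamed. Of 87940 cell barcodes, 4990 (5.67%) occurred in more than 1 library. Cluster levels are given as CPM, a gene's UMIs per 1000000 UMIs of the cells summed, in which fewer expressing cells and less RNA per cell cannot be told apart, and a CPM is compared between cells or tumors for 1 gene, never between genes.

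IL-4, IL-5 and IL-13 are the cytokines of type 2 immunity, the arm that meets worms and allergens and that takes part in tissue repair. They are made mainly by T helper 2 cells and group 2 innate lymphoid cells, both of which depend on GATA3 and can be driven by IL-33 through its receptor ST2, encoded by Il1rl1. IL-4 and IL-13 signal through receptors that share the IL-4Rα chain, and in macrophages the IL-4Rα and IL-13Rα1 pair activates STAT6, which turns on genes such as Retnla, Ccl24, Arg1 and Mrc1. IL-5 acts on eosinophils, and CCL24 (eotaxin-2) draws them through CCR3.

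The 3 cytokine genes are neighbours on chromosome 11. On GRCm38, Il4 spans chr11:53602982-53618669 (minus strand), Il13 chr11:53631324-53634702 (minus strand) and Il5 chr11:53720794-53725106 (plus strand), and with Rad50 they are the 4 protein-coding genes of a 122.125 kb stretch. Il4ra lies at chr7:125552120-125579474, Il13ra1 at chrX:36112110-36171259, Gata3 at chr2:9857078-9890034, Il1rl1 at chr1:40429570-40465415, Retnla at chr16:48842551-48844461 and Ccl24 at chr5:135569937-135573049. RefSeq gives Il5 and Il13 a single start and Il4 a pair of them. The promoters of Il5, Il13 and the Il4 start further from the gene's 5′ end hold a match to the letters that GATA factors bind. These letters are AGATAA and its variant TGATAA, as well as AGATAG with its variant TGATAG, on either strand. The match is in capitals in the 120 bases before the RefSeq start (build GRCm38.p6). The bases are shown because GATA3 is the defining factor of the cells that make these cytokines.
Il4 chr11:53617339-53617458, minus strand: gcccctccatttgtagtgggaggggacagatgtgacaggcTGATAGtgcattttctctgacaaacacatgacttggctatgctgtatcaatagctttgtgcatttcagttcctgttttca
Il5 chr11:53720674-53720793, plus strand: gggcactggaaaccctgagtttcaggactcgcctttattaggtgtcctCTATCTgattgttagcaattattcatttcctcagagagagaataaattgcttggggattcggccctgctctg
Il13 chr11:53634703-53634822, minus strand: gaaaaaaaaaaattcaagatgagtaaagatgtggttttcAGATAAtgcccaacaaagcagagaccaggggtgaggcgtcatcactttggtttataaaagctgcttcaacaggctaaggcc
The matches begin 80, 72 and 81 bases before the start. The 250 bases before the other Il4 start (chr11:53618666-53618915, minus strand), at the 5′ end of the annotated gene, hold none of the GATA letters and a match to the STAT6 letters given below, 167 bases before that start. In 250 bases before the start, 26.5% of 32851 RefSeq promoters hold such a match, so it is a description of these letters and not a site shown to be bound. The Il1rl1 promoter holds 5 GATA matches at 1 RefSeq start and 1 at the other, while those of Il4ra, Il13ra1 and Gata3 hold none of these letters in that window. The Retnla promoter is shown for its match to the STAT6 letters TTCNNNNGAA, which begins 145 bases before the RefSeq start, against 5.85% of promoters with such a match. The annotated Retnla span begins before that start, at chr16:48842551, so the last of the bases shown lie inside it.
Retnla chr16:48842429-48842608, plus strand, 180 bases: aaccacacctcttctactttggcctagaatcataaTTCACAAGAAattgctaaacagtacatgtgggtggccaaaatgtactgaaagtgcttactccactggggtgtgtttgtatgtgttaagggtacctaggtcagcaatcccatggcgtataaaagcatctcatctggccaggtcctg

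Very few cells held a cytokine transcript, and most of these were T/NK cells. Il4 had 219 UMIs in 45 cells, Il5 had 109 UMIs in 24 cells and Il13 had 834 UMIs in 81 cells, and 127 cells (0.136% of all) held a UMI of any of the 3. T/NK clusters held 104 of these cells, with 90.0% of Il4, 100% of Il5 and 99.3% of Il13 UMIs. Of the cells with Il4, 17 of 45 lay elsewhere, with 4 UMIs in a cell of cluster 5, 3 in a cell of cluster 17 and 1 in each of the others. In macrophages, the most abundant cells, Il4 had 19 UMIs in 14 of 68059 cells (0.0206%, median 3481 UMIs per cell), Il13 had 5 UMIs and Il5 had 0 (95% Wilson upper limit 0.00564% of cells with a UMI, which does not limit the cells that express it). Among T/NK cells a UMI of Il4 was found in 0.233%, of Il5 in 0.200% and of Il13 in 0.624% of cells, at a lower median depth of 1918 UMIs, so each share lay above that of macrophages at the shallower depth.

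Within the T/NK cells, cluster 10 was the main source. Its 625 cells held 77.6% of Il4, 71.6% of Il5 and 77.7% of Il13 UMIs, at 89.5, 41.1 and 341 CPM. Cluster 23 had 15.5 CPM of Il4, 34.1 of Il5 (11 UMIs) and 74.4 of Il13. For Il5 its level was near that of cluster 10, with a UMI in 7 of 212 cells against 14 of 625. Its Il5 and Il13 levels lean on 1 cell, from the CC080 isotype tumor of pool 4, with 5 Il5 and 15 Il13 UMIs. The cluster 10 levels lean on 1 CC001 aPD1 tumor, which held 94 of its Il4, 33 of its Il5 and 276 of its Il13 UMIs. A cytokine UMI was found in 60 cells of cluster 10 (9.6%), in 16 of 212 cells of cluster 23 (7.55%) and in 7 of 631 cells of cluster 13 (1.11%). Il13 and Il4 are among the 10 genes of largest fold in cluster 10, and the authors' clustering used the same cells, so this is a description of where the UMIs lay and was not tested. Cluster 10 carried Cd3e (963 CPM), Cd4 (482 CPM) and Cd40lg (239 CPM), genes of helper T cells, with little Cd8a (51.1 CPM) or Foxp3 (7.37 CPM). Cluster 23 was led by Il23r, Il17a and Il1rl1 and carried Rora (794 CPM) and Areg (289 CPM) with little Cd4 (43.4 CPM).

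**Figure D1:**
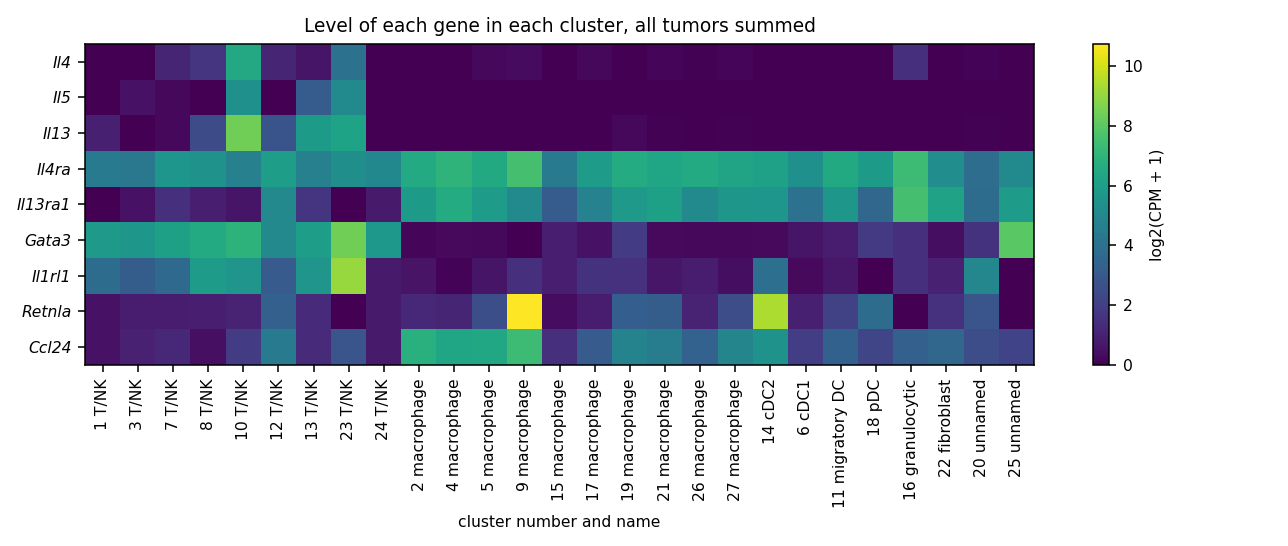
Level of the 9 genes (rows) in the 27 clusters (columns, grouped by the name the markers gave them), as log2(CPM + 1) of counts summed over all tumors; dark purple is 0 and yellow is highest. Il4 and Il13 stand out in cluster 10 (341 CPM for Il13), Il5 in clusters 10 and 23, Gata3 and Il1rl1 in cluster 23, Retnla in clusters 9 and 14, and Il4ra and Il13ra1 are spread over the macrophage clusters.

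The cells that held a cytokine UMI differed from the rest of their cluster in several genes, and the contrast was not the same in the 3 clusters. In cluster 10, cytokine cells had 294 CPM of Gata3 against 96.9 in the other cells, 149 against 33.3 of Il1rl1, and 109 against 4.24 of Pparg, a nuclear receptor known in T helper 2 and innate lymphoid cells. The Il1rl1 level leans on 1 cytokine cell, from the CC007 aPD1 tumor of pool 7, which held 22 Il1rl1 UMIs. The cytokine cells of cluster 10 also had 492 against 173 CPM of Il2ra and 306 against 79.4 of Il2, while Cd4 was alike at 492 and 480 CPM and Cd8a was 4.03 against 58.2. In cluster 23, cytokine cells had 1950 against 403 CPM of Il1rl1, 807 against 291 of Gata3 and 336 against 113 of Kit, and held 0 UMIs of the T cell receptor gene Trac against 205 CPM in the rest. Here too the Il1rl1 level leans on 1 cytokine cell, from the CC075 isotype tumor of pool 9, with 26 Il1rl1 UMIs among 1330.

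Cluster 13 is led by Il2, Ifng and Xcl1 and its cells carry Cd8a, but its 7 cytokine cells did not look like that: Cd4 was 373 against 26.4 CPM, Cd40lg 1027 against 129 and Cd8a 46.7 against 487. In the same 7 cells Il2 was at 4761 against 678 CPM and Il3, another cytokine of activated T cells, at 1447 against 20.7 CPM. These contrasts rest on 60, 16 and 7 cells summed over tumors, were chosen after the cells were seen, and carry no test. Markers of basophils and eosinophils, which can also make IL-4, were low in every cluster: Fcer1a reached at most 0.0237 CPM in any cluster, Mcpt8 10.7 CPM, Epx 0 and Siglecf 12.5 CPM. Kit, a marker of mast cells, reached 133 CPM in cluster 23. Cluster levels cannot show a few such cells among others.

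The cytokine UMIs lay in a handful of cells. The cell richest in Il4 held 88 of its 219 UMIs and the next 46, and the 10 richest cells held 83.6% of Il4, 83.5% of Il5 and 69.2% of Il13 UMIs, against 20.4% for Retnla, 5.97% for Ccl24 and 0.362% for Il4ra. The single cell with most Il13 lay in cluster 10 of the CC001 aPD1 tumor of pool 12 and held 225 UMIs of Il13, 27 of Il5 and 6 of Il4 among 14339 UMIs. Another cell of that tumor held 88 of Il4, 51 of Il13 and 6 of Il5. A similar cell from the CC036 aPD1 tumor of pool 10, held 18 of Il4, 15 of Il5 and 52 of Il13, together with 15 of Gata3. Il4 and Il13 were found together in 10 cells, Il5 and Il13 in 13, and all 3 cytokines in 3.

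**Figure D2:**
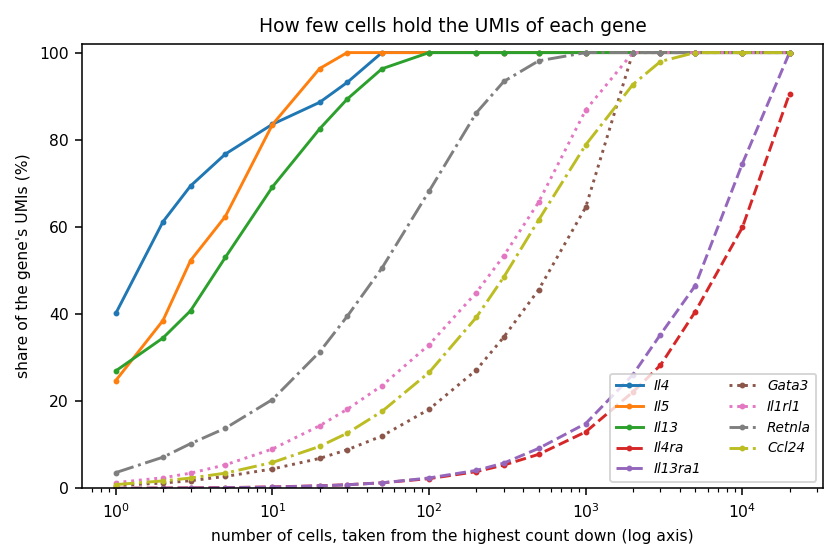
Share of each gene's UMIs (y axis, percent) held by its richest cells, against the number of cells counted from the richest (x axis, log scale), over all 93126 cells. The curves of Il4, Il5 and Il13 pass 69% by 10 cells, Retnla and Ccl24 climb more slowly (20.4% and 5.97% by 10 cells), and Il4ra (0.362% by 10 cells) and Il13ra1 the slowest.

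A UMI of Il4 was found in 27 of 48 tumors, of Il5 in 16 and of Il13 in 26. The CC001 aPD1 tumor of pool 12 alone held 47.5% of all Il4, 44.0% of Il5 and 35% of Il13 UMIs. Il13 of T/NK cells ranged from 0 to 54.7 CPM (median 0) in responder isotype tumors, from 0 to 559 (median 0.489) in responder aPD1, from 0 to 21.8 (median 2.31) in non-responder isotype and from 0 to 173 (median 0) in non-responder aPD1 tumors. The groups overlapped, and each had tumors without a UMI.

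Il4 in T/NK cells reached 2.42 CPM in responder isotype, 199 in responder aPD1, 2.14 in non-responder isotype and 36.7 in non-responder aPD1 tumors, and Il5 reached 2.49, 91.9, 9.24 and 34.7 CPM. Each aPD1 maximum came from 1 tumor, CC001 of pool 12 or CC036 of pool 10. Il4, Il5 and Il13 were too low in T/NK cells to pass the filter of the test across genes there. In all cells summed, Il13 was tested: its log2 fold change of aPD1 against isotype in responder strains was 3.21 (SE 1.33, adjusted p = 1.0), and −0.84 without CC001.

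By strain, cytokine UMIs were found as follows, without a test of these shares. CC036 had Il5 in T/NK cells of 6 of 6 tumors, but in only 7 cells with 30 UMIs. Its levels were 0.923, 6.53 and 9.24 CPM in isotype tumors and 4.11, 8.97 and 34.7 in aPD1 tumors. The other strains had Il5 in at most 3 tumors, and in CC080 it was in 6 cells of 2 tumors. CC079 had no UMI of any of the 3 cytokines in 704 T/NK cells of 6 tumors, which allows a share of up to 0.426% of cells with a UMI (3 counts, exact 95% upper bound 0.523%) at a median of 1704 UMIs per cell and does not limit the cells that express them. Cluster 10, the main source, had 149 cells in CC036 and 14 in CC079. Elsewhere the share of T/NK cells with a cytokine UMI ran from 0.512% in CC001 to 1.52% in CC007, with 1.5% in CC036 and 1.25% in CC080. These shares count cells, which come from few tumors and are no replicates, so the strains are not compared by them. In macrophages, CC079 held 9 of the 19 Il4 UMIs, in 4 cells.

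Among the 8 strains, Il5 and Il13 in all cells differed (edgeR's quasi-likelihood test, Benjamini-Hochberg adjusted p = 0.0375 and 0.0446), with 45.6% of the 14364 genes tested called in that comparison. Other members were called there too, and beside that share the number called, given below, is not a result about these genes. Neither the Il5 nor the Il13 call held with DESeq2 (0.262 and 0.130), and with the pool as a replicate block none of the 8 members tested was called. The Il5 and Il13 counts are those of the few cells above.

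**Figure D3:**
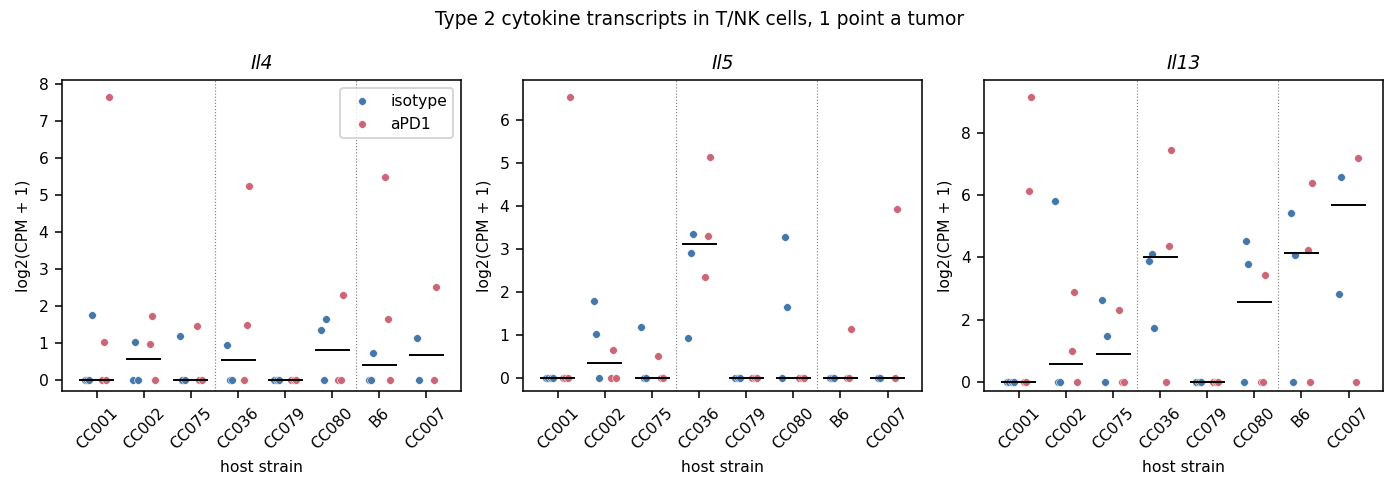
Il4, Il5 and Il13 in T/NK cells as log2(CPM + 1) (y axis) by strain (x axis); each point is a tumor, blue for isotype and red for aPD1, the black line is the strain median, and dotted lines part responder strains, non-responder strains and those of no class. Most points lie at 0, and CC079 is at 0 throughout. Il5 is above 0 in 6 of 6 CC036 tumors, from 7 cells in all. The highest Il13 value (559 CPM) is a CC001 aPD1 tumor.

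The size of cluster 10 was compared between groups of tumors as its share of all cells. It was 0.651% ± 0.570 (SD, n = 10) in responder isotype, 0.725% ± 0.740 (n = 10) in responder aPD1, 1.79% ± 3.14 (n = 9) in non-responder isotype and 0.341% ± 0.560 (n = 9) in non-responder aPD1 tumors. None of 4 differences passed a two-sided permutation test: class in isotype tumors (exact p = 0.365, adjusted 0.486), class in aPD1 tumors (exact p = 0.247, adjusted 0.486), aPD1 in responders (permutation p = 0.822) and aPD1 in non-responders (exact p = 0.195, adjusted 0.486). Paired over 9 pools, with the strains of a pool averaged (CC001 and CC002 share pool 12), aPD1 tumors had 0.158 percentage points more than isotype tumors in responders (exact sign-flip p = 0.695) and 1.45 fewer in non-responders (difference −1.45, exact sign-flip p = 0.258). The CC036 isotype tumor of pool 8 held the highest share, 9.60%. Without CC036, the remaining non-responder aPD1 tumors had 0.0800% ± 0.0711 (n = 6), below responder aPD1 tumors by 0.645 percentage points (exact permutation p = 0.00175, adjusted 0.00699) and below their isotype counterparts by 0.814 (exact permutation p = 0.0238, adjusted 0.0476). This case was singled out from those with each strain left out, whose range is given below. It lies outside the 4 differences above, none of which passed. Its adjusted values cover the differences within the case and not the choice of it, so no class or aPD1 effect is read from them. The p-values of this case take the tumors of CC079 and CC080 as independent and do not use the pairing by pool. T/NK cells were also fewer with aPD1 than with isotype, 194 against 510 in CC079 and 551 against 1454 in CC080. The part of this in the share was not tested.

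Gata3 and Il1rl1 mark the cells from which these cytokines are expected, but both reached well beyond them. Gata3 had 2636 UMIs in 1935 cells, 85.9% of them in T/NK cells, where 14.6% of cells had a UMI against 0.0867% of macrophages. Its CPM was highest in cluster 23 (338), followed by the unnamed cluster 25 (258), which mixes B cell and keratin genes, and by clusters 10 (123) and 8 (93.8). Il1rl1 had 2362 UMIs in 1311 cells. T/NK cells held 37.8% of them, with 546 CPM in cluster 23, but the unnamed cluster 20 held 34.5% (30.1 CPM) and cluster 14, named cDC2, 18.3% (14.4 CPM).

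Gata3 of T/NK cells was 61.8 ± 24.4 CPM (SD, n = 10) in responder isotype, 62.0 ± 10.9 (n = 10) in responder aPD1, 80.2 ± 13.1 (n = 9) in non-responder isotype and 85.8 ± 29.8 (n = 9) in non-responder aPD1 tumors. The log2 fold change of responder against non-responder strains, averaged over treatments, was −0.35 (SE 0.12) and did not pass (adjusted p = 0.141). Il1rl1 was 26.7 ± 18.8, 24.7 ± 13.8, 32.1 ± 15.4 and 48.6 ± 51.7 CPM in the same order (log2 fold change −0.35, SE 0.27, adjusted p = 0.615). The widest of these, in non-responder aPD1 tumors, held the CC079 tumor of pool 1 at 173 CPM, and for both genes the groups overlapped.

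Il4ra, the chain shared by the IL-4 and IL-13 receptors, was widespread. It had 32581 UMIs in 23071 cells. Macrophages held 84.8% of them at 91.8 CPM, with a UMI in 28.3% of cells, and T/NK cells had 33.8 CPM, with a UMI in 8.24% of cells. Among macrophage clusters it was highest in cluster 9 (193 CPM) and cluster 4 (128 CPM) and lowest in cluster 15 (19.7 CPM). The granulocytic cluster (165 CPM), migratory dendritic cells (92.9 CPM) and cDC2 (69.9 CPM) carried it too.

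Il13ra1, the chain that pairs with IL-4Rα on macrophages and other cells outside the lymphoid lineage, had 17858 UMIs, of which macrophages held 84.1%. A UMI was found in 18.1% of macrophages (49.9 CPM) and in 0.740% of T/NK cells (3.27 CPM). It was highest in the granulocytic cluster (192 CPM), followed by macrophage cluster 4 (97.7 CPM) and fibroblasts (73.3 CPM). In cluster 9, where Il4ra peaked, Il13ra1 was at 33.9 CPM, below the level over all macrophages. Over the 27 clusters, and among genes of at least 200 UMIs, those whose log2(CPM + 1) followed Il13ra1 most closely were Marcks (Pearson r 0.944) and Tgm2 (r 0.935), and for Il4ra it was Abcg1 (r 0.886). These are descriptions over clusters that share libraries.

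Neither receptor chain passed the test between classes in macrophages. Il4ra in responder isotype tumors ran from 69.1 to 125 CPM (median 90.1), in responder aPD1 from 64.8 to 128 (median 92.3), in non-responder isotype from 61.7 to 182 (median 99.1) and in non-responder aPD1 from 74.4 to 166 (median 95). Il13ra1 had means between 46.2 ± 13.1 (responder isotype, n = 10) and 51.3 ± 6.09 CPM (non-responder aPD1, n = 9). The log2 fold changes of class were −0.04 (SE 0.11, adjusted p = 0.918) for Il4ra and −0.04 (SE 0.09, adjusted p = 0.900) for Il13ra1. Thinned to 1000 UMIs per cell, 9.64% ± 2.22 (SD, n = 9) of macrophages in non-responder aPD1 tumors had an Il4ra UMI against 9.08% ± 1.63 (n = 10) in responder aPD1 tumors (unthinned 30.6% and 27.2%). For Il4ra, strains of the same class lay apart: CC036 had a mean of 125 CPM and CC079 77.1 among non-responders, and CC075 had 110 and CC001 80.0 among responders.

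Il4ra of T/NK cells was lower in responder strains. It was 28.8 ± 7.63 CPM (SD, n = 10) in responder isotype and 27.9 ± 8.81 (n = 10) in responder aPD1 tumors, against 37.3 ± 8.99 (n = 9) in non-responder isotype and 50.4 ± 16.4 (n = 9) in non-responder aPD1 tumors. Responder aPD1 tumors ran from 12.9 to 42.1 CPM and non-responder aPD1 tumors from 26.4 to 74.3, and 5 of 9 of the latter lay above every responder aPD1 tumor. The log2 fold change averaged over treatments was −0.52 (SE 0.13, edgeR adjusted p = 0.0230). It was the only one of 3 members tested there that passed, and 2.23% of the 7219 genes were called.

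The groups also had different mixes of T/NK clusters. Clusters 3 and 13, the CTL (cytotoxic T lymphocyte) clusters of the study, made up a median of 49.3% of T/NK cells in responder isotype and 33.7% in responder aPD1 tumors, against 16.7% in non-responder isotype and 11.4% in non-responder aPD1 tumors. Il4ra is low in those clusters (18.6 CPM in cluster 3 and 25.0 in cluster 13) and higher in clusters 7 (49.9) and 12 (61.5), the latter led by haemoglobin genes and passing the marker limits of macrophages as well as of T/NK cells. With clusters 3 and 13 left out the log2 fold change was −0.30 (SE 0.13, adjusted p = 0.469), and the call was lost. Within clusters, the summed level was lower in responder than in non-responder tumors in 6 of 9 T/NK clusters, clusters 3 (18.1 against 25.0 CPM) and 13 (22.3 against 48.6) among them, as well as 7 (35.6 against 61.9) and 12 (43.4 against 67.2). It was 43.8 and 43.5 in cluster 8, 36.8 and 24.1 in cluster 24 and 19.8 and 14.3 in cluster 1. Cluster 10 had 25.1 and 27.1 CPM, so low levels were not particular to clusters 3 and 13. These sums rest on 3 to 127 UMIs each, and the part of makeup in the class difference was not tested. The call was also lost within pools 1 to 5 (−0.49, adjusted p = 0.238) and within pools 8 to 12 (−0.52, adjusted p = 0.193), and without CC079 (0.0784), CC002 (0.130) or CC036 (0.104).

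**Figure D4:**
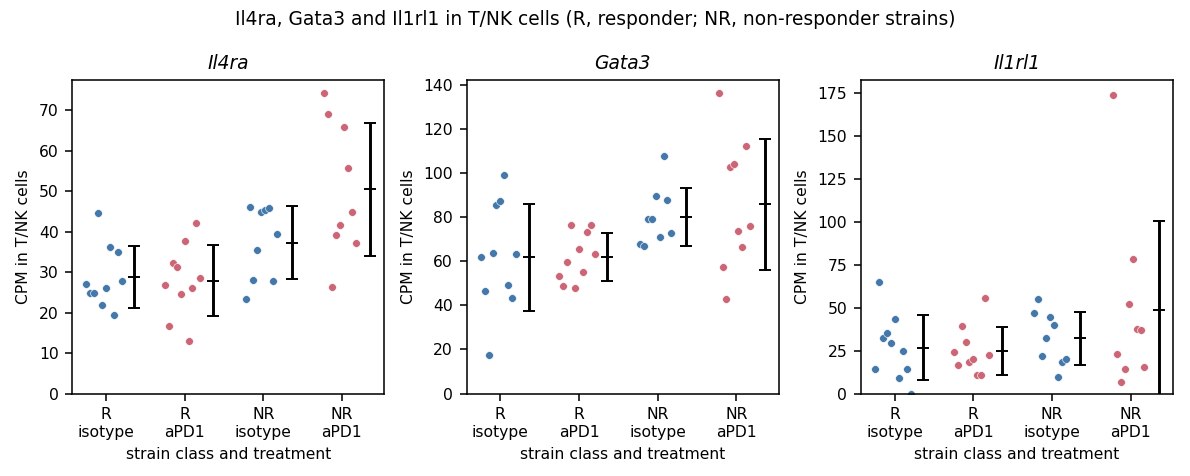
Il4ra, Gata3 and Il1rl1 in T/NK cells in CPM (y axis) by class (R responder, NR non-responder) and treatment (x axis); points are tumors (blue isotype, red aPD1), and bars give the mean ± SD, with the axis starting at 0 where an SD reaches below it. Il4ra in non-responder aPD1 tumors (50.4 ± 16.4 CPM) lies highest and overlaps the other groups, and 1 non-responder aPD1 tumor stands alone in Il1rl1 at 173 CPM.

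Retnla encodes RELMα (FIZZ1), a secreted protein that is the best known readout of IL-4 signalling in mouse macrophages. It had 29134 UMIs, but in 911 of 93126 cells, and 342 cells of at least 10 UMIs held 95% of them. Cluster 14, named cDC2 by its markers, held 70.9% (690 CPM, a UMI in 9.38% of cells) and macrophage cluster 9 held 25.7% (1726 CPM, a UMI in 12.7% of cells). Outside cluster 9, macrophages had 2.46 CPM. A UMI was found in 0.529% of all macrophages (median 3481 UMIs per cell) and in 0.241% of T/NK cells (median 1918), which are not known to make it and had 1.43 CPM, close to the macrophages outside cluster 9.

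Cluster 9 is a small macrophage cluster (1022 cells) led by Lyve1, Cd163, Ccl8 and Folr2, genes of macrophages that reside in tissue. It had the highest level of any cluster in Il4ra, Retnla and Ccl24. Of the 22 genes listed as macrophage targets, 5 were also highest there: Mrc1 (1479 CPM), F13a1 (1551 CPM), Ccl8 (2450 CPM), Cd163 (125 CPM) and Cd36 (329 CPM). The other 17 peaked in other clusters, among them Arg1 in cluster 27, Chil3 and Tgm2 in cluster 4 and Ccl17 and Ccl22 in migratory dendritic cells. The 65 cluster 9 cells of at least 10 Retnla UMIs, from 28 tumors, had more Ear2 (323 against 25.5 CPM), Ccl24 (463 against 119) and Areg (76.0 against 14.4) than the cells of that cluster without a Retnla UMI. Their Cd163 was alike (122 and 124 CPM) and their Il4ra was 120 against 203 CPM. This contrast sums cells over strains and carries no test. Over all macrophage clusters, 27 cells of at least 10 Retnla UMIs came from CC079 and 16 from CC080, against 2 to 12 in each other strain. The part of strain in the contrast was not tested.

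The Retnla cells of cluster 14 went against the name of their cluster. All 6 cDC2 markers were lower in its 253 Retnla-high cells, from 39 tumors, than in the 4514 cells without a Retnla UMI: Cd209a was 6.83 against 299 CPM, Flt3 1.46 against 44.6, Zbtb46 3.9 against 49.3, Clec10a 38 against 153, Itgax 88.8 against 217 and Cd80 49.3 against 83.5. Of 8 monocyte/macrophage markers 6 were higher, led by Lyz2 (7359 against 1111 CPM), Adgre1 (90.7 against 17.5) and Apoe (346 against 168), while Fcgr1 (36.1 against 94.3) and Ly6c2 (8.29 against 135) were lower. These cells also had more F13a1 (431 against 33.6 CPM), Ear2 (1117 against 177), Mrc1 (429 against 135) and Arg1 (717 against 195). They are described here as the Retnla-high cells of cluster 14 and given no cell type. The contrast was made after the cells were seen, carries no test, and no doublet caller was run.

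In macrophages, Retnla was lower in responder strains. Responder isotype tumors ran from 0 to 48.6 CPM (median 4.89) and responder aPD1 tumors from 0.218 to 35.6 (median 3.96), against 0.272 to 253 (median 36.4) in non-responder isotype and 2.69 to 101 (median 22.3) in non-responder aPD1 tumors. The ranges overlapped, with 4 of 9 non-responder aPD1 tumors above every responder aPD1 tumor and 5 of 10 responder aPD1 tumors below every non-responder one. The log2 fold change averaged over treatments was −2.0 (SE 0.60, adjusted p = 0.0361). Retnla was the only one of 4 members tested that passed, where 6.56% of 11873 genes were called, and the median log2 fold change over all genes was −0.00449.

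The Retnla difference depended on the pools and strains included. Within pools 1 to 5 it was −4.09 (adjusted p = 0.00343), and within pools 8 to 12, which hold no CC079 tumor, it was 0.55 (adjusted p = 0.727), in the other direction. With a term for this split of the pools, which follows the strains they hold and is no batch named in the labels, it was −1.94 (adjusted p = 0.0800). It was −1.29 without CC079 (adjusted p = 0.264), −1.78 without CC002 (0.124), −2.28 without CC001 (0.0563) and −2.08 without CC075 (0.0594), so the direction held without any of these strains and the call did not. By strain, the means were 83.8 CPM in CC079, 44.9 in CC080 and 17.5 in CC036 among non-responders, and 14.6 in CC001, 14.1 in CC075 and 3.83 in CC002 among responders, with 36.5 in B6 and 7.78 in CC007. In macrophages CC036 thus lay close to CC001 and CC075. The SD of each non-responder strain was about its mean (86.8 CPM in CC079, 45.7 in CC080 and 14.4 in CC036). The 6 CC079 tumors had 65.3, 38.8 and 253 CPM with isotype and 72.4, 4.18 and 68.7 with aPD1.

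Counted in cells, 55 macrophages of at least 10 Retnla UMIs came from 16 of 18 non-responder tumors and 17 from 10 of 20 responder tumors. Cluster 9 made up a median of 1.55% of macrophages in non-responder and 0.750% in responder tumors. With cluster 9 left out, the log2 fold change of Retnla in macrophages was −1.65 (adjusted p = 0.0883). Within cluster 9, where 18 tumors had at least 20 cells (5 responder isotype, 2 responder aPD1, 5 non-responder isotype and 6 non-responder aPD1), it was −3.54 (SE 0.99, adjusted p = 0.229), with 0.205% of 3893 genes called. DESeq2 called it there (adjusted p = 0.0113), as did edgeR with genes of at least 10 UMIs (0.0485) and without CC036 (0.0495). Within pools 1 to 5 it was −5.47, with the responder aPD1 group unreplicated. The CC002 tumor of pool 3 was the only responder aPD1 tumor left there. The responder isotype tumors left were all CC001 and the non-responder isotype tumors all CC079. In cluster 14, which was chosen after its values were seen and not tested, the group medians were 200 and 253 CPM in responder isotype and aPD1 and 457 and 932 CPM in non-responder isotype and aPD1 tumors, with ranges that overlapped.

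Split by treatment, Retnla in macrophages did not pass in isotype tumors (log2 fold change −1.78, adjusted p = 0.715, 0.278% of genes called) or in aPD1 tumors (−2.22, adjusted p = 0.115, 6.44% called). With the pool as a replicate block it passed in aPD1 tumors (−3.07, adjusted p = 0.0458). Over all cells summed, clusters 9 and 14 included, the class difference of Retnla was −1.82 (SE 0.53, adjusted p = 0.0474, 3.2% of 13503 genes called), and of 7 members tested it alone passed. The call was lost with the pool block (adjusted p = 0.148), without tumors under 500 cells (0.0621), with genes of at least 10 UMIs (0.0530), without the CC001 aPD1 tumor of pool 12 (0.0577) and without CC079 (0.120), CC002 (0.173), CC036 (0.131) or CC075 (0.108). Within pools 1 to 5 the Retnla difference in all cells was −1.65 (adjusted p = 0.344) and within pools 8 to 12 −2.02 (0.298), so that in the latter the direction was opposite to that in macrophages alone.

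Ccl24, the eotaxin, was spread over more cells than Retnla: 18942 UMIs in 3389 cells. Cluster 2 held 51.7% of them and cluster 5 18.9%, while the level was highest in cluster 9 (165 CPM), followed by clusters 2 (111 CPM), 5 (85.1 CPM) and 4 (80.3 CPM). Cluster 5 passed all 8 macrophage markers although immunoglobulin and haemoglobin genes lead it, and leaving it out changed no call of Retnla or Ccl24 by class (adjusted p = 0.0442 and 0.0739). A UMI of Ccl24 was found in 4.46% of macrophages and in 0.308% of T/NK cells. Cluster 2 is led by Cxcl2, Il1b and Ccl24 itself. Its 280 cells of at least 10 Ccl24 UMIs had more Mrc1 (425 against 119 CPM), Arg1 (1990 against 834), Ear2 (187 against 47.5) and Il4ra (144 against 91.7) than its cells without a Ccl24 UMI, and less Apoe (1108 against 2982). These cells came from 34 tumors, unevenly: the CC036 aPD1 tumor of pool 9 alone held 98 macrophages, over all clusters, with at least 10 Ccl24 UMIs. The contrast was made after the cells were seen and carries no test. Retnla and Ccl24 were found together in 179 macrophages.

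Ccl24 in macrophages ran from 0 to 66.6 CPM (median 21.2) in responder isotype tumors, from 2.91 to 313 (median 8.56) in responder aPD1, from 2.46 to 378 (median 87.3) in non-responder isotype and from 11.7 to 595 (median 29.4) in non-responder aPD1 tumors. Of 10 responder aPD1 tumors, 7 lay below every non-responder aPD1 tumor, and 5 of 9 non-responder isotype tumors lay above every responder isotype tumor. Thinned to 1000 UMIs, 1.46% of macrophages in responder isotype and 1.83% in responder aPD1 tumors had a Ccl24 UMI, against 4.80% in non-responder isotype and 4.03% in non-responder aPD1 tumors (unthinned 2.83%, 3.04%, 8.34% and 7.01%). The class difference of Ccl24 was −1.69 (SE 0.61) and did not pass with edgeR (adjusted p = 0.0933), while it did with DESeq2 (0.0417). It passed without CC001 (−2.44, adjusted p = 0.0233) and without CC079 (−2.22, adjusted p = 0.0271), and fell to −0.67 without CC036 (adjusted p = 0.548).

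Within macrophages, the strains ranked differently for Retnla and Ccl24. Mean Ccl24 was 202 CPM in CC036, 118 in CC080 and 15 in CC079 among non-responders, against 51.6 in CC001, 24.7 in CC075 and 16.5 in CC002 among responders, with 33.9 in CC007 and 21.3 in B6. By mean in macrophages, CC079, highest in Retnla, thus had the lowest Ccl24. There CC036, highest in Ccl24, came after CC079, CC080 and B6 in Retnla. In cluster 14, which held most Retnla UMIs, mean Retnla was highest in CC036 (1653 CPM, SD 1287), with 889 in CC079 and 499 in CC080. Over all cells, mean Retnla was 198 (isotype) and 167 CPM (aPD1) in CC036, against 144 and 145 in CC079. The order of strains in Retnla is thus one of macrophages only. The CC001 mean of Ccl24 includes the aPD1 tumor of pool 12 at 313 CPM. By median Ccl24, CC079 (16.6 CPM) was not lowest: CC002 had 15.4, CC001 14.6, B6 14.4 and CC075 9.1. The SD of CC036 was 203 CPM and that of CC001 106 CPM, so the order of neighbouring strains lies within the spread between tumors. In cluster 2 alone the class difference of Ccl24 was −1.52 (SE 0.55, adjusted p = 0.118, with 3.83% of 9450 genes called), and it passed without CC001 (0.0204) and without CC079 (0.0250). In all cells it was −1.65 (adjusted p = 0.146), and −2.62 without the CC001 aPD1 tumor of pool 12 (adjusted p = 0.00224).

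**Figure D5:**
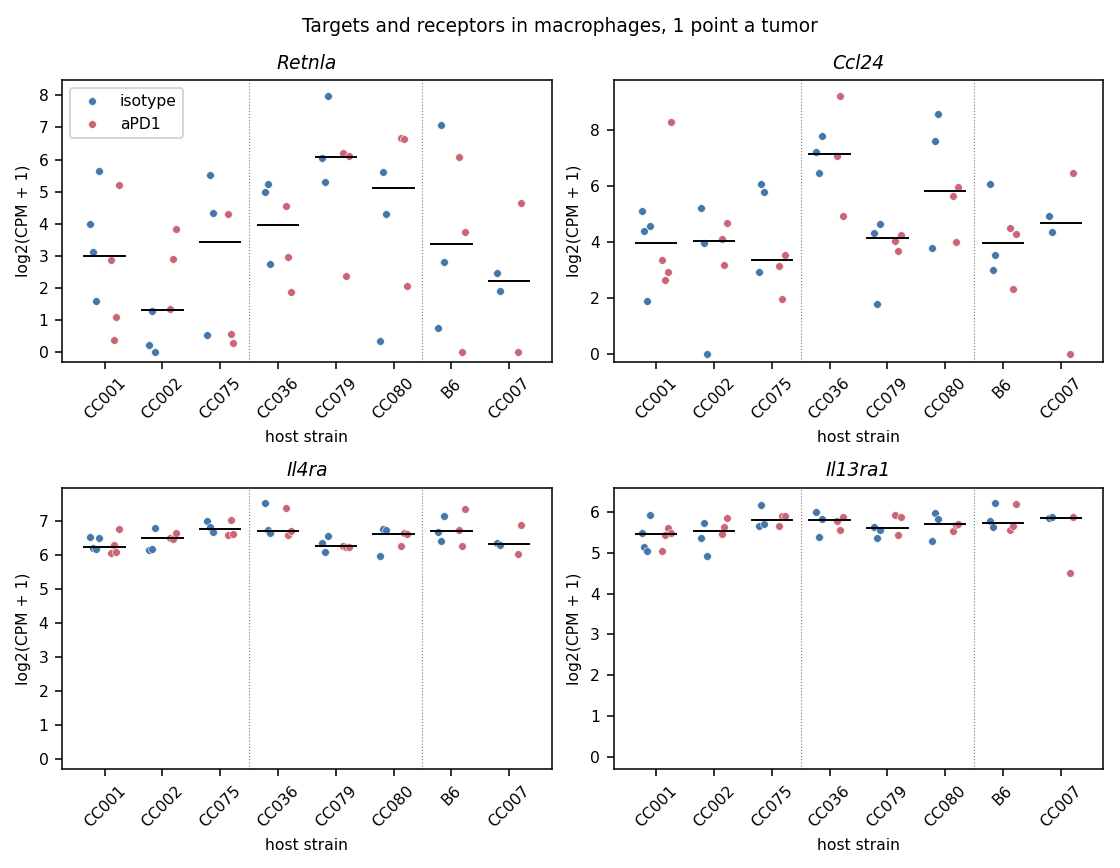
Retnla, Ccl24, Il4ra and Il13ra1 in macrophages as log2(CPM + 1) (y axis) by strain (x axis); each point is a tumor, blue for isotype and red for aPD1, the black line is the strain median, and dotted lines part responder strains, non-responder strains and those of no class. Retnla is highest in CC079 (mean 83.8 CPM) and Ccl24 in CC036 (mean 202 CPM), and both spread widely within strains, whereas Il4ra and Il13ra1 hold a narrow range.

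Tested among all 8 strains in macrophages, Il4ra (adjusted p = 0.00449), Retnla (0.0334) and Ccl24 (0.00146) differed and Il13ra1 did not pass (0.0868). As 51.7% of 12510 genes were called in that comparison, 3 of 4 members is not a result about these genes. With the pool as a replicate block only Retnla was called (0.0158), Il4ra and Ccl24 moving to 0.685 and 0.0787. Retnla lost its call without CC079 (0.246) and without CC002 (0.101).

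Treatment with aPD1 moved none of the members past the threshold. In macrophages of responder strains the log2 fold changes of aPD1 against isotype were 0.07 (SE 0.16) for Il4ra, 0.07 (SE 0.13) for Il13ra1, −0.83 (SE 0.86) for Retnla and 0.62 (SE 0.85) for Ccl24. The Ccl24 value turned to −1.42 without CC001, −1.19 within pools 1 to 5 and −0.83 with the pool block, and was lower with aPD1 in 6 of 10 responder pairs. In non-responder strains they were −0.06, 0.05, −0.39 and −0.24, and the difference between the classes was −0.44 (SE 1.18, adjusted p = 0.998) for Retnla and 0.86 (SE 1.21) for Ccl24. In these 3 comparisons edgeR called 0 (0%) of 11873 genes, with 821, 91 and 680 genes at an unadjusted p under 0.05, and DESeq2 called 2, 0 and 1. Each pool held an isotype and an aPD1 tumor of each of its strains. In 162 sets of at least 7 such pairs (a gene, a kind of cell and a class), all pairs went the same way in 2, both in cluster 9: Ccl24 was higher with aPD1 in 8 of 8 non-responder pairs (median difference 69.1 CPM) and Il13ra1 in 7 of 7 responder pairs (24.8 CPM), while both were lower in 4 of 4 pairs of B6 and CC007. The 162 include sets in which no pair differed, such as Il5 in macrophages, and these could not all go the same way. The 2 sets were seen before they were named and carry no test, and tumors with few cluster 9 cells are in them. The SEs of Retnla and Ccl24 in macrophages come from the fit over the 4 groups, which does not use the pairs within a pool. In that fit they are wide enough that a change of 2-fold in either direction would not have been detectable.

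In T/NK cells, aPD1 changed none of Il4ra, Gata3 and Il1rl1 past the threshold in either class, with 0 (0%) of 7219 genes called in responder strains (215 at an unadjusted p under 0.05) and 1 (0.0139%) in non-responder strains, and as many with DESeq2. In all cells edgeR called 0 (0%) of 13503 genes in either class (590 and 512 at an unadjusted p under 0.05), as did DESeq2. The largest member values there were 3.21 for Il13 in responders, carried by CC001, and −1.29 (SE 0.49, adjusted p = 1.00) for Gata3 in non-responders, which was lower with aPD1 in 8 of 9 pairs, while in T/NK cells, which hold 85.9% of Gata3, it was higher in 6 of 9. Those non-responder tumors held 2599 T/NK cells among 19780 with isotype and 1246 among 17756 with aPD1, and the part of this in the Gata3 value was not tested. The value did not pass with the pool as a block (−1.13, adjusted p = 0.972).

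Other genes of the axis were taken as 3 lists, of signalling parts (16 genes), of genes taken as macrophage targets (22 genes) and of upstream signals and producer cell genes (17 genes). In macrophages, 1 of 14 signalling genes tested was called by class, a share near the 6.56% over all genes, and it was higher in responder strains: Il2rg, the common γ chain of the IL-4 receptor and of others (log2 fold change 0.40, adjusted p = 0.0113), which in aPD1 tumors was 0.63 higher (adjusted p = 0.00653, beside 6.44% of all genes called). The median of that list was 0.000356 beside −0.00449 over all genes. Stat6 and Jak1, tested too, were not called.

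Of 17 macrophage targets tested 2 were called, in opposite directions and beside 6.56% of all genes, so that nothing is read about the list. Ccl22, a chemokine for CCR4, was higher in responders (1.49, adjusted p = 0.0466), and Mrc1, the mannose receptor, was lower (−0.58, adjusted p = 0.0336), with a list median of −0.271. In aPD1 tumors Cd163, a scavenger receptor, was 2.51 lower on the log2 scale (−2.51, adjusted p = 0.0418, beside 6.44% of all genes called), and over all cells Mrc1 was again lower (−0.60, adjusted p = 0.0474, beside 3.2%). Mrc1 and Cd163 peaked in cluster 9, at 1479 and 125 CPM against 230 and 3.11 over all macrophages. That cluster made up a median of 0.750% of macrophages in responder and 1.55% in non-responder tumors, and its part in these values was not tested. Within cluster 9 the chemokine gene Ccl8 was higher in responders (1.84, adjusted p = 0.0182, beside 0.205%). Arg1, Chil3 and Tgm2, often used as readouts of IL-4 in macrophages, were not called by class. None of 7 upstream genes tested in macrophages was called (median −0.127). The lists gave no call by class among T/NK cells, where 12 signalling genes, 3 targets and 8 upstream genes were tested (medians −0.0923, −0.498 and −0.367, beside −0.00875 over all genes). Among those signals, Il33 had 300 UMIs and Tslp 425 over all cells, and Il25 and Il9 had 0. In the test among strains 11 of 14 signalling genes, 14 of 17 targets and 7 of 7 upstream genes were called, beside 51.7% of all genes.

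The genes most like each member were found by correlation over the 27 clusters, among genes of at least 200 UMIs, which leaves out Il5 (109 UMIs) as a match. Log2(CPM + 1) of Il5 followed Il13 with a Pearson r of 0.932 and Il4 followed Il13 with 0.860, while Il13, apart from Il5, was closest to Lgals7 (0.862) and Cd40lg (0.861). Gata3 was closest to Prkcz (0.954) and Ikzf3 (0.947), Il1rl1 to Gm49890 (0.849) and Hlf (0.839), Retnla to Cd163 (0.798) and Ccl24 to Gm32089 (0.920) and Ms4a8a (0.898). These values describe patterns over clusters from the same libraries, several of them at 0 for the cytokines.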

How the data were processed

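The authors deposited raw UMI counts per gene and cell, made with Cell Ranger on GRCm38 (mm10), kept cells assigned to a specimen by hashtag, filtered them on mitochondrial and ribosomal shares (highest left 14.99% and 44.99%) and clustered with Seurat 5.0.1. No doublet removal beyond hashtags is given in the sources used here, and none was run. Members and gene lists were chosen with earlier results of these data known.

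From these deposited counts, UMIs were summed per tumor over macrophages, T/NK cells, all cells and the clusters of most macrophage Retnla (9) and Ccl24 (2), for tumors of at least 20 cells. Tests were edgeR 4.0.16 (R 4.3.3) quasi-likelihood fits over 4 groups of class and treatment, or over strain and treatment, with TMM scaling, filterByExpr and Benjamini-Hochberg adjustment over all genes (threshold 0.05); DESeq2 1.42.0 was an alternative. Shares were compared by permutation (scipy 1.17.1; exact, or 100000 resamples). A cluster was named when at least 3 markers and 50% of a list reached 100 CPM. A cell was called high for a gene at 10 UMIs. All 9 members were named, and of each list up to 4 called genes. On counts simulated for the class comparison averaged over treatments, 97% of changes of 1 on the log2 scale in macrophages (11873 genes), 96% in T/NK cells (7219) and 62% in cluster 9 (3893) were recovered, with 9, 8 and 10 false calls. The changed genes were drawn at random from those tested, so these rates are no guide to genes as variable as Retnla and Ccl24, whose class SEs are given above. Intervals and limits cover counting error only.

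The labels make a pool a shared library, which pairs its tumors: deviations from group means correlated at a median r of 0.308 in 55 same-pool pairs (80% over 0.1, lowest −0.393) and −0.0774 in 648 others (33.2% over 0.1), over 9940 genes. An animal number stands on 2 tumors, which were kept.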

Additional observations from a re-analysis of the deposited data

Results flagged for a closer look

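In 40 groups of 4 to 10 tumors tested for a tumor far from the rest (by Dixon's criterion), 15 values stood out, where chance flags about 1 in 20 groups of roughly normal values. That rate does not hold for the cytokines, whose groups are mostly at 0, so that a tumor with a few UMIs stands out. Most lie in 3 tumors. In T/NK cells, the CC001 aPD1 tumor of pool 12 had 199.1 CPM of Il4 (next of its group 2.333), 91.9 of Il5 (0.5832) and 559.1 of Il13 (69.55), and in its macrophages 313.4 of Ccl24 (24.49) and 35.59 of Retnla (18.96). The CC036 aPD1 tumor of pool 10 had 36.74 CPM of Il4 (3.902), 34.7 of Il5 (8.968) and 173.5 of Il13 (19.73). The CC002 isotype tumor of pool 3 had 54.72 CPM of Il13 (5.225) and 2.487 of Il5 (1.306), where each of these Il5 values is 1 UMI.

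In macrophages, Il4ra stood out in both CC036 tumors of pool 8, at 182.1 CPM with isotype (106.4) and 165.6 with aPD1 (102.8). Retnla stood out in the CC079 isotype tumor of pool 5 at 253 CPM (65.35), and 1 cell of that tumor held 1063 Retnla UMIs. Ccl24 stood out in the CC036 aPD1 tumor of pool 9 at 595.5 CPM (132.6), and Il1rl1 of T/NK cells in the CC079 aPD1 tumor of pool 1 at 173.3 CPM (78.04).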

How the results depend on the processing

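Of 1149 member values under alternatives, 1072 stayed on their side of the threshold with the same sign or, in 105 of them, with another sign but both values within 1 SE of 0. A further 50 lost a call, 12 gained one and 15 changed direction. Pools as blocks changed no call other than those given here. The number of members called in macrophages by class went from 1 to 2 with DESeq2 and to 0 with a term for pools 1 to 5 against 8 to 12 (Retnla adjusted p = 0.0800), within pools 8 to 12 and without cluster 9. In aPD1 tumors it went from 0 to 1 with the pool block, and by strain from 3 to 1. In T/NK cells it went from 1 to 0 within pools 1 to 5, within pools 8 to 12 and without clusters 3 and 13. In all cells it went from 1 to 0 with genes of at least 10 UMIs, with the block, without tumors under 500 cells and within either group of pools. By strain in all cells, where 45.6% of all genes were called, it went from 5 to 3 with DESeq2, 0 with the block and 2 without tumors under 500 cells. In cluster 9 it went from 0 to 1 with DESeq2 and with genes of at least 10 UMIs. The cause of these changes was not tested. Leaving out each strain gave 0 to 1 called in macrophages, T/NK cells, cluster 9 and cluster 2, 0 to 2 in all cells and 2 to 4 by strain in all cells.

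Within pools 8 to 12 Retnla in macrophages was 0.55 (isotype 0.32, aPD1 0.78). For aPD1 in responders, Ccl24 was −1.19 in macrophages and −1.01 in all cells within pools 1 to 5, and −1.31 in all cells without the CC001 tumor of pool 12. Il13ra1 in cluster 2 was −0.19 within pools 1 to 5, and Il1rl1 in T/NK cells was 0.0839 without clusters 3 and 13. Leaving out each strain moved the class difference of Il4ra from −0.18 to 0.15 in macrophages and −0.17 to 0.16 in all cells, of Il13 in all cells from −1.13 to 1.92, and of Ccl24 in aPD1 tumors from −3.04 to 0.59. It moved the aPD1 effect in responders from −1.42 to 1.48 for Ccl24 in macrophages, from −1.44 to 1.54 in all cells, and from −0.84 to 5.39 for Il13. For the share of cluster 10 the class difference in aPD1 tumors ran from 0.0870 to 0.661, and the aPD1 effect from −0.280 to 0.414 in responders and −2.12 to −0.814 in non-responders.

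The count of all genes called by class in macrophages was 779, 331 within pools 1 to 5 and 332 within pools 8 to 12, and by strain 6464 and 1623 with the block. In T/NK cells 161 ranged from 42 to 316. No scaling moved the median of all genes by over 0.1. The cytokines' low counts (109 to 834 UMIs) limit what can be seen of them in a tumor.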
